A study of Homo sapiens with 6 samples.

Results

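Replication-dependent histone genes encode the core and linker histones that package newly copied DNA. In the deposited expression table, 60 of 32985 genes were taken as this family by name and by a protein-coding transcript type. The rule used no expression value, but it was chosen with earlier results of these data known. They comprised 6 genes of the linker histone H1, 14 of H2A, 15 of H2B, 13 of H3 and 12 of H4. Another 7 entries with matching names carried no protein-coding transcript type and were left out. The cells were 8505C, an established line from human anaplastic thyroid cancer. One group of 3 libraries came from cells transfected with a control siRNA (siCtrl, genotype label WT) and the other group of 3 from cells transfected with a single siRNA against NUF2 (siNUF2, genotype label NUF2 knockdown), all labelled 24 h. Only this line and this siRNA were sequenced, and nothing in the labels says that the libraries came from separate cultures, so p-values measure the spread between these libraries, which may be technical.

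Histone genes of this family are known for making mRNAs that have no poly(A) tail. Their transcripts end in a short hairpin a little after the stop codon. The stem-loop binding protein SLBP binds that hairpin, and the U7 small nuclear ribonucleoprotein, of which LSM10 and LSM11 are parts, directs the cut behind it. Transcription and stability of these mRNAs both rise in S phase, when DNA is copied, and the mRNAs are degraded when replication ends. The libraries here were made from RNA selected for poly(A) tails. The values therefore concern those histone transcripts that passed that selection, and they need not follow the total histone mRNA of the cell.

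The sum of gene counts was between 61257859 and 69755291 per library, and the histone genes held between 0.0137% and 0.0340% of it. NUF2, the kinetochore subunit targeted by the siRNA, had 14.8, 14.5 and 12.2 FPKM (a level per transcript length and per sequencing depth) with siCtrl against 1.53, 2.05 and 1.56 with siNUF2. The fitted log2 fold change, given throughout with its standard error (SE), was -2.99 ± 0.17 (adjusted p = 5.1e-04, edgeR). Among thyroid markers, the transcription factor NKX2-1 was present at 14.6 to 21.5 FPKM, while 6 of the 7 markers measured had a mean under 1 FPKM. Summed leukocyte markers lay between 1.33 and 2.24 FPKM in 5 libraries and at 10.2 in siCtrl library 1, where lysozyme (LYZ) alone had 7.47. The part of this difference in the histone results was not tested.

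The family lay in a few dense clusters. On GRCh38, 48 genes were on chromosome 6, in blocks of 30, 5 and 13 genes between 26017032 and 27893891. A further 11 genes were on chromosome 1 between 149782689 and 149887965, and H4-16 lay alone on chromosome 12. The hairpin that marks these mRNAs was searched for in the reference genome (hg38), within 200 bases after each stop codon of GENCODE release 44. The search asked for a stem of 6 base pairs that begins with GG and ends with CC, with at most 1 mismatch and G-U pairs allowed, and a loop of 4 bases that begins with TT. It was found in 58 of the 60 genes, in each case without a mismatch, and was not found for H3C6 and H2BC10. The distance from the stop codon was between 22 and 67 bases, with a median of 35. The same rule without a mismatch was met by 15 of 4063 other protein-coding genes on chromosomes 1, 6 and 12 (0.369%), of which 10 carry histone names.

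The 58 hairpins had 6 sequences. One gene is given for each, 5′ to 3′ on the strand of the gene, with both strands of the stem in capitals and the loop in lower case. They are shown because the last loop base divides the family.
H2AC6, chr6:26124669-26124684, plus strand: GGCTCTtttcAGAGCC
H2BC12, chr6:27146366-27146381, minus strand: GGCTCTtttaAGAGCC
H4C11, chr6:27824459-27824474, plus strand: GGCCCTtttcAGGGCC
H4C9, chr6:27139654-27139669, plus strand: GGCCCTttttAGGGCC
H2AC11, chr6:27133515-27133530, plus strand: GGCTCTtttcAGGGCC
H2AC20, chr1:149887391-149887406, plus strand: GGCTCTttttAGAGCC
The H2AC6 form was carried by 35 genes of the family and was its commonest. The H2BC12 form was found in 9 genes, among them H2BC5, H2BC11 and H2BC4. The H4C11 form was found in 8 genes, and the H4C9 form in 4 genes, all of class H4. The other two forms belonged to 1 gene each.

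The level of the family was low and uneven. A mean of at least 1 FPKM over the 6 libraries, which a gene needed to enter the test, was reached by 19 of the 60 genes (1 of H1, 5 of H2A, 6 of H2B, 2 of H3 and 5 of H4). A mean of at least 10 FPKM was reached by 4 of them. H2BC12 alone held 29.3% of all counts on the family, H2BC12, H2AC6 and H1-2 together 56.1%, and the 10 leading genes 82.1%. The leading gene also dominated within a class, since H1-2 held 97.4% of the H1 counts, H2BC12 65.4% of the H2B counts and H2AC6 64.0% of the H2A counts. In H4 and H3 the leading genes held less, with 48.7% for H4C9 and 29.8% for H3C10.

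**Figure D1:**
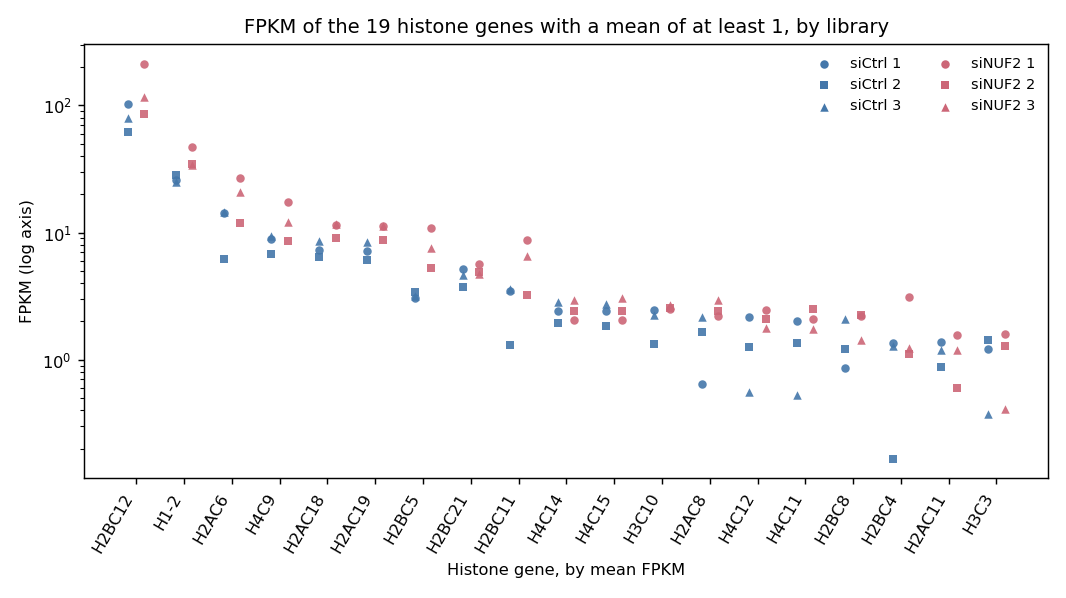
FPKM (log axis) of the 19 histone genes with a mean of at least 1 FPKM, ordered by mean, with 1 point per library, colour for the siRNA and shape for the replicate number. H2BC12 lies between 61.6 and 213 FPKM, and from H2BC12 to H2BC11 the highest point of each gene is siNUF2 library 1 (red circle), except for H2AC18 and H2AC19, where siNUF2 library 3 is highest.

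At the other end, 41 genes stayed under a mean of 1 FPKM. Of these, 18 had a mean count under 10, 18 had a count of 0 in at least 1 library and 12 had 10 counts or more in every library. Most of H1 and H3 belonged here. The linker histone genes H1-3, H1-4 and H1-5 had means of 0.177, 0.307 and 0.236 FPKM against 32.5 for H1-2, although H1-2, too, is annotated as ending 4 bases past its hairpin. The highest genes below the limit were H2BC9 (mean of 0.968 FPKM), H4C8 (0.937) and H2BC17 (0.866), and the lowest above it was H3C3 (1.05).

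Whether the annotated gene ran on beyond the hairpin went with the level. The deposited entry ended more than 100 bases past the hairpin in 22 genes, of which 11 reached 1 FPKM, with a median over genes of 1.05 FPKM. It ended within 100 bases of the hairpin in 36 genes, of which 8 reached 1 FPKM, with a median of 0.227. These are counts over genes, which are not independent replicates, and no test was made. The most abundant genes did not follow this order, since the entries of H2BC12 and H1-2 end 5 and 4 bases past their hairpins. By loop, 4 of 9 genes with a loop ending in A reached 1 FPKM, as did 4 of 5 with a loop ending in T and 11 of 44 with a loop ending in C. The 4 with A were all of class H2B and the 4 with T all of class H4, and loop and class were not separated.

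**Figure D2:**
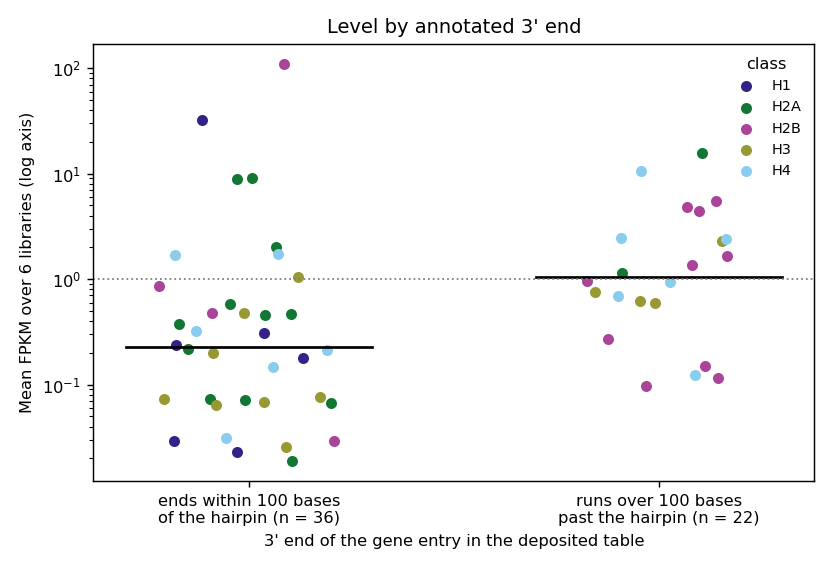
Mean FPKM over 6 libraries (log axis) of the 58 histone genes with a hairpin, split by where the deposited gene entry ends, with colour for the class, a bar at the median and a dotted line at 1 FPKM. The median is 0.227 for 36 entries that end near the hairpin and 1.05 for 22 longer entries, and the 2 highest points belong to the first group (H2BC12 and H1-2).

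The comparison of siNUF2 with siCtrl cells asked how the transcriptome differs after NUF2 is lowered. Summed over all 60 genes, the siCtrl libraries 1, 2 and 3 held 191, 135 and 187 CPM of the family (counts normalised to library size), whereas the siNUF2 libraries of those numbers held 343, 193 and 250 CPM. By this measure the siNUF2 libraries were all above the siCtrl libraries, but siNUF2 library 2 lay only just above siCtrl library 1. By other measures siNUF2 library 2 lay below siCtrl library 1. It had 0.01905% against 0.01916% of all counts, and 202 against 206 in summed FPKM. The mean CPM values of siCtrl and siNUF2 were 171 ± 31.3 and 262 ± 75.8 (SD, n = 3 each), a ratio of 1.53 or 0.61 on the log2 scale. The siNUF2 libraries thus differed more among themselves than the siCtrl libraries. Library 1 of siNUF2 carried much of the difference, for without it the log2 ratio was 0.37. Libraries with the same number in the 2 groups deviated together across genes, and by number the ratios were 1.79, 1.43 and 1.34. Without H2BC12 the ratio was 1.46, and over the 41 genes under 1 FPKM it was 1.24. In bulk libraries, a larger share of cells that express histone genes and more histone mRNA per cell cannot be told apart. Nor can either be told from a larger part of the histone mRNA passing the poly(A) selection.

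Every class had a ratio above 1. H2B had the highest, at 1.65, from 86.8, 56.3 and 76.3 CPM in siCtrl to 171, 82.5 and 108 in siNUF2. H2A followed at 1.58 and H1 at 1.46. H4 had 1.31 and H3 1.25, the lowest. In H3 the ratios by number were 1.28, 1.58 and 1.02, so that number 3 hardly differed. Whether the classes differ from one another was not tested.

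**Figure D3:**
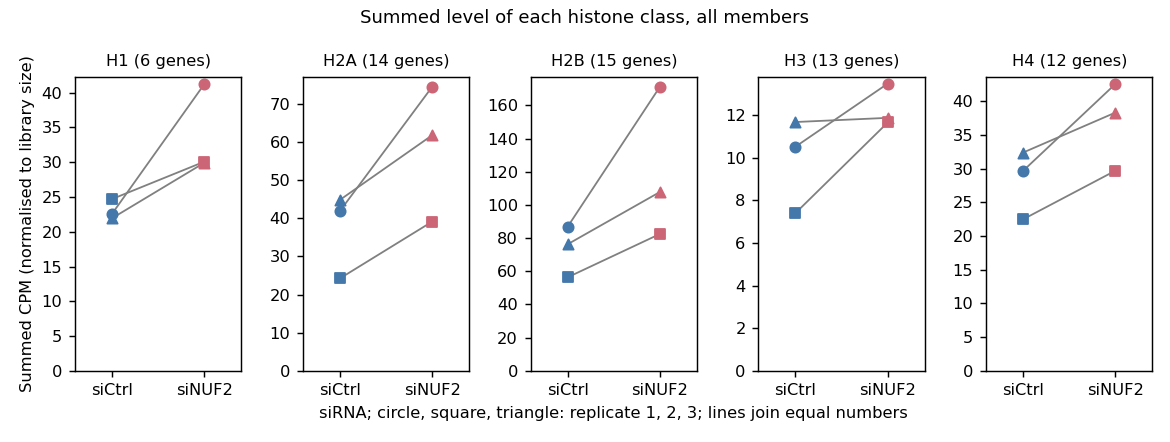
Summed CPM of all members of each histone class in siCtrl (blue) and siNUF2 (red) libraries, with lines joining libraries of the same replicate number and axes that start at 0 but differ in range. All 15 lines slope upward, and the line of number 3 in H3 is almost flat, with a ratio of 1.02.

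Gene by gene, the quasi-likelihood test of edgeR, adjusted over all 11725 genes tested by the Benjamini-Hochberg method, called 1 of the 19 tested histone genes, which was higher in siNUF2 cells, and 0 lower (0 lower also at an unadjusted p under 0.05 and by DESeq2 and limma). Over all genes it called 3.99%, and 1.53% as higher. At an unadjusted p under 0.05 there were 7 of the 19, all higher, against 18.2% of all genes. The fitted log2 fold change was above 0 for 18 of the 19 genes, against 51.1% of all genes tested. The median was 0.56, against 0.01 over all genes, and the values ran from -0.03 to 1.31. Since members share libraries, and some share reads, these counts describe the list and are no test of it. With the replicate number as a block, 5 of the 19 were called higher (26.3%) and 0 lower, where the same fit called 6.64% of all genes higher and 7.91% lower. All siNUF2 libraries were above all siCtrl libraries for 6 of the 19, namely H1-2, H2AC8, H2AC18, H2AC19, H2BC5 and H3C10 (31.6%). Such a lack of overlap was seen for 24.1% of all genes and, with siNUF2 higher, for 12.1%. The siNUF2 library was above the siCtrl library of its number in all 3 pairs for 13 of the 19 (68.4%, against 26.5% of all genes).

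**Figure D4:**
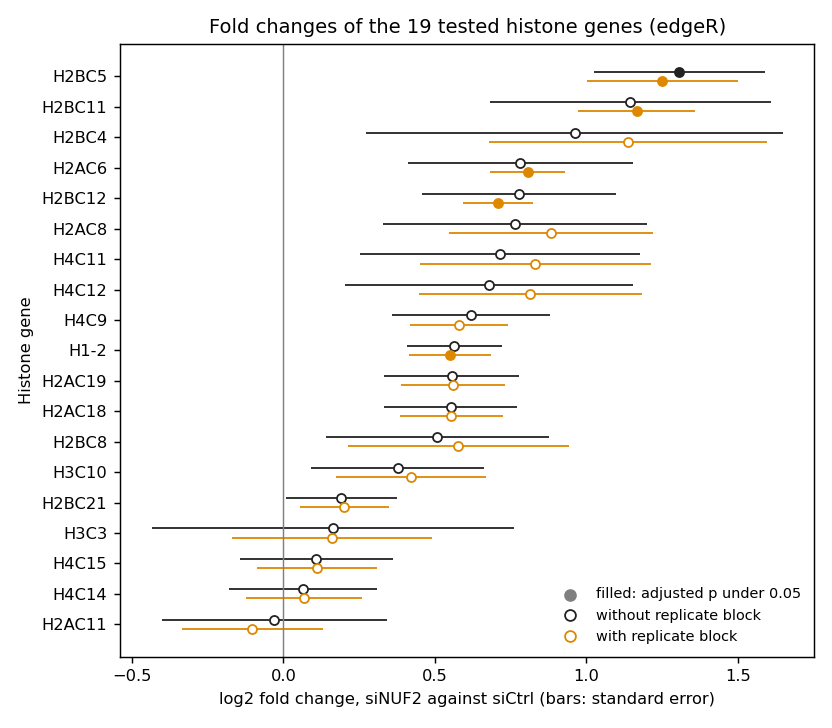
log2 fold change of siNUF2 against siCtrl with its standard error for the 19 tested histone genes, without (black) and with (orange) the replicate number as a block, with filled points at an adjusted p under 0.05. H2BC5 is the single filled black point at 1.31, 5 orange points are filled, and H2AC11 is the one gene with both points below 0.

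H2BC5, an H2B gene, was the gene called. It had 3.05, 3.41 and 3.15 FPKM with siCtrl against 10.8, 5.23 and 7.56 with siNUF2, from 215, 241 and 205 against 727, 367 and 474 counts. The groups did not overlap, and the siNUF2 libraries were spread over a wider range than the siCtrl libraries. The log2 fold change was 1.31 ± 0.28 (SE, adjusted p = 0.0455, edgeR), and with the block it was 1.25 ± 0.25 (SE, adjusted p = 0.0176). The call without the block was made in only 1 of the 6 fits that left out a library, the one without siNUF2 library 2, and the adjusted p over those fits (edgeR) ran from 0.0328 to 0.146. The entry of H2BC5, on chromosome 6 from 26158146 to 26171349, runs 12747 bases past its hairpin. Over 10585 bases of its span, introns included, it overlaps AL353759, a gene on the opposite strand with 263 counts over the 6 libraries. The FPKM values imply a length of 872 bases for the part of H2BC5 that was counted. Whether reads were counted by strand is not stated, so reads of the 2 genes could not be separated.

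The other 3 tested H2B genes of the hairpin form with a loop ending in A had a higher mean in siNUF2 cells, but their groups overlapped. H2BC12, the most abundant, had 103, 61.6 and 80.3 FPKM with siCtrl against 213, 85.1 and 117 with siNUF2. Its siNUF2 library 2 lay below siCtrl library 1, and the adjusted p was 0.253 without the block (log2 fold change 0.78, standard error 0.32, edgeR). Within numbers it was higher in all 3 pairs, by 1.05, 0.50 and 0.56 on the log2 scale, and with the block it rose by 0.71 ± 0.12 (SE, adjusted p = 0.0085, edgeR).

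H2BC11, in the same block of 5 genes as H2BC12, had 3.44, 1.32 and 3.62 FPKM with siCtrl against 8.73, 3.21 and 6.48 with siNUF2. Again siNUF2 library 2 fell inside the siCtrl range. With the block it rose by 1.17 ± 0.19 (SE, adjusted p = 0.0089, edgeR), against an adjusted p of 0.245 without it. H2BC4 had 1.35, 0.167 and 1.27 FPKM with siCtrl against 3.10, 1.10 and 1.23 with siNUF2, and pair 3 went the other way. It was not called in either fit (adjusted p = 0.537 and, with the block, 0.146, edgeR). In contrast, H2BC21 had 5.21, 3.72 and 4.61 FPKM with siCtrl against 5.67, 4.85 and 4.74 with siNUF2, and the log2 fold change of 0.19 ± 0.18 (SE, adjusted p = 0.661, edgeR) was the lowest of the 6 H2B genes tested. Its loop ends in C, as does that of H2BC8, and whether loop and fold change go together was not tested. H2BC8 had 0.866, 1.22 and 2.09 FPKM with siCtrl against 2.19, 2.24 and 1.42 with siNUF2, and pair 3 again went the other way (log2 fold change 0.51 ± 0.37, adjusted p = 0.544, edgeR).

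Among linker histones only H1-2 could be tested. It had 25.8, 28.6 and 25.0 FPKM with siCtrl against 47.5, 34.3 and 34.1 with siNUF2. The groups did not overlap, and siNUF2 library 1 stood above the other two. The log2 fold change was 0.56 ± 0.16 (SE, adjusted p = 0.102, edgeR) and 0.55 with the block (standard error 0.14, adjusted p = 0.036). H1-1, with a mean of 0.029 FPKM, had 5, 2 and 4 counts in siCtrl libraries and 0 in each siNUF2 library. The groups did not overlap, but a count of 0 allows up to 3 counts per library, so no fold change is given, and the gene was too low to enter the test.

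In H2A, the values of the highest gene, H2AC6, were 14.1, 6.22 and 14.6 FPKM with siCtrl against 26.9, 11.9 and 20.7 with siNUF2. Library 2 was the lowest of each group, so the groups overlapped while each pair differed in the same direction, by 0.94, 0.97 and 0.52 on the log2 scale. The adjusted p was 0.32 without and 0.0067 with the block, where it rose by 0.81 ± 0.12 (SE, edgeR). H2AC18 and H2AC19 are near-identical copies on chromosome 1, and their counts differed by at most 8 in any library. H2AC18 had 7.27, 6.37 and 8.56 FPKM with siCtrl against 11.4, 9.03 and 11.7 with siNUF2. Together they amount to 1 measurement, with log2 fold changes of 0.55 and 0.56 and adjusted p of 0.238 and 0.242 (edgeR; with the block 0.071 and 0.070).

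H2AC8 was lower in level, at 0.648, 1.66 and 2.18 FPKM with siCtrl against 2.20, 2.42 and 2.94 with siNUF2, and was not called (adjusted p = 0.419, edgeR). H2AC11 had the lowest log2 fold change of the 19, at -0.03 ± 0.37 (SE, adjusted p = 0.979, edgeR), from 1.38, 0.883 and 1.20 FPKM in siCtrl to 1.56, 0.597 and 1.18 in siNUF2 libraries. Among the H2A genes tested, H2AC11 is also the one whose hairpin differs from the common form. It starts beside H2BC11, which is read in the opposite direction from the same stretch of chromosome 6 and which rose with the block.

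H4C9, the highest of the H4 genes, had 8.92, 6.76 and 9.39 FPKM with siCtrl against 17.5, 8.64 and 12.01 with siNUF2. Its log2 fold change was 0.62 ± 0.26 (SE, adjusted p = 0.263, edgeR), and with the block the adjusted p was 0.054. H4C11 and H4C12, of whose 150-base words 88.8% and 89.5% occur in the other gene, had log2 fold changes of 0.72 and 0.68 with standard errors of 0.46 and 0.47. Their siCtrl libraries ranged from 0.524 to 2.01 and from 0.555 to 2.16 FPKM, and the low library was number 3 in both. H4C14 and H4C15, copies on chromosome 1 whose counts differed by at most 26, had log2 fold changes of 0.06 and 0.11 (standard errors 0.24 and 0.25). None of the H4 genes was called in either fit. The same-numbered libraries disagreed in sign for H4C14 and H4C15.

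Both tested H3 genes lay low. H3C10 had 2.45, 1.32 and 2.26 FPKM with siCtrl against 2.50, 2.56 and 2.67 with siNUF2. The groups did not overlap, by a narrow margin, and the log2 fold change was 0.38 ± 0.28 (SE, adjusted p = 0.561, edgeR). H3C3 had a log2 fold change of 0.16 with a standard error of 0.60, and its library 3 was the lowest of both groups. Among H3 genes under 1 FPKM, H3C8 had 0.479, 0.468 and 0.921 FPKM with siCtrl against 0.871, 0.729 and 1.06 with siNUF2. H3C6 had 0.640, 0.518 and 0.591 FPKM with siCtrl against 0.755, 0.834 and 0.599 with siNUF2, and its groups overlapped. H3C14 and H3C15 are another pair of copies, with counts within 7 of each other, and each overlaps the neighbouring H4 gene by 230 bases on the opposite strand.

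Over the 41 untested genes, 7 were higher in siNUF2 in all 3 numbered pairs and 6 in none. A pair with 0 counts in both libraries was taken as not higher. Among the 6, H1-6, H2AC21, H2BC3 and H3C7 had such pairs. Of the 11725 tested genes, 26.5% were higher in all 3 pairs. The groups did not overlap for 3 of the 41, against 24.1% of the tested genes. H2BC7 and H3C2 were higher and H1-1 lower. H3C2, singled out after its values were seen, had 11, 5 and 0 counts with siCtrl against 65, 20 and 15 with siNUF2. With counts this small no fold change is given.

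The promoters were compared as the stretch from 250 bases before to 50 bases after the RefSeq start (GRCh38.p14), available for 54 members. The letters CCAAT, on either strand, stood in 46 of 54 (85.2%, against 34.6% of 35116 promoters), with 1 of 9 for H4 and all promoters of the other classes. TATAAA stood in 37 of 54 (68.5%, against 11.5%). The octamer ATTTGCAT, known as a site of the POU factor OCT1 in H2B promoters, stood in 23 of 54 (42.6%, against 1.77% of all). It was found in 12 of 15 H2B and 10 of 13 H2A promoters, in 1 of 11 of H3, and in 0 of 6 of H1 and 0 of 9 of H4. The H3 case, H3C4, has its octamer window at chr6:26199395-26199422, which is also the window of H2AC7 and H2BC7. That window lies outside the deposited H3C4 entry (26196784 to 26197286). Some other windows hold 2 genes at once, since neighbouring H2A and H2B genes are transcribed apart from a shared stretch.

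Octamer windows of H2B genes are shown for comparison with their fold changes, with the octamer in capitals and 10 bases on each side, on the strand of the gene (all on the minus strand).
H2BC12, chr6:27146887-27146914: tcttcaccttATTTGCATgagaggtcct
H2BC11, chr6:27132825-27132852: tcttcaccttATTTGCATaagcgattct
H2BC4, chr6:26124032-26124059: ttcatacctcATTTGCATagctctgccc
H2BC21, chr1:149886711-149886738: cggagccctaATTTGCATaaggtggtta
The H2BC11 window is also the H2AC11 window, and the H2BC4 window is also the H2AC6 window, each read from the other strand. H2BC12 and H2BC11 carry the same bases from the start of the window through the octamer. The promoter windows of H2BC5 and H1-2 hold no exact octamer. Genes with the octamer thus included H2BC12, H2BC11 and H2AC6, called with the block, and H2BC21 and H2AC11, with log2 fold changes of 0.19 and -0.03.

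Genes that act on histone mRNA were measured in the same fit. For this and the lists that follow, the shares over all 11725 tested genes serve as background. Without the block edgeR called 3.99%, and 18.2% had an unadjusted p under 0.05. DESeq2 called 8.29% and limma 3.27%. With the block 6.64% rose and 7.91% fell. Of 25 genes of histone mRNA 3′ end processing, edgeR called 0 without the block (2 at an unadjusted p under 0.05), DESeq2 called 2 and limma 0. With the block 1 rose and 2 fell. SLBP had 32.03, 42.8 and 31.98 FPKM with siCtrl against 26.9, 25.3 and 23.2 with siNUF2, without overlap. In edgeR it was called only with the block, where it fell by 0.47 on the log2 scale (adjusted p = 0.022 with the block and 0.104 without it, edgeR). LSM11 had 2.92, 3.32 and 3.69 FPKM with siCtrl against 1.98, 1.93 and 2.49 with siNUF2 (adjusted p = 0.015 with the block, where it fell by 0.62, and 0.087 without it, edgeR). For LSM10, its partner, the log2 fold change was -0.27 (adjusted p = 0.277, edgeR). It was 0.31 for ZNF473, a further U7 processing factor (adjusted p = 0.526), and 0.04 for CASP8AP2, which acts with NPAT (adjusted p = 0.941).

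Of 21 genes of histone mRNA decay, 2 fell and 0 rose. LSM4, of the LSM ring that binds mRNA destined for decay, had 35.5, 40.9 and 36.9 FPKM with siCtrl against 19.5, 22.3 and 18.8 with siNUF2, so that every siNUF2 library was far below every siCtrl library. Its log2 fold change was -0.88 ± 0.11 (SE, adjusted p = 0.007, edgeR). LSM5, of the same ring, fell by 0.41 (adjusted p = 0.042), and with any 1 library left out a single gene of this list was called. For ERI1, the exonuclease that trims the hairpin, the change was -0.12 (adjusted p = 0.603), and for the helicase UPF1 it was 0.06 (adjusted p = 0.835). With the block the list had 2 lower and 1 higher, against 7.91% and 6.64% of all genes.

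Of 21 genes of histone gene transcription, edgeR called 0 without the block (1 at an unadjusted p under 0.05), and DESeq2 and limma called 0. The log2 fold change was above 0 for 15 of the 21, with a median of 0.09. NPAT, the coactivator of histone genes, had 4.24, 5.02 and 4.02 FPKM with siCtrl against 4.51, 4.52 and 4.63 with siNUF2, a log2 fold change of 0.06 (adjusted p = 0.84, edgeR). With the block 1 gene rose, CCNE1, whose product cyclin E1 works with CDK2 upstream of NPAT. It had 3.01, 2.09 and 4.25 FPKM with siCtrl against 4.85, 4.32 and 7.28 with siNUF2 and rose by 0.85 (adjusted p = 0.011 with the block and 0.197 without it, edgeR).

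Histone chaperones moved both ways. Of 25 tested, 1 fell without the block, NPM1, an abundant nucleolar chaperone, with a log2 fold change of -0.92 (adjusted p = 0.005, edgeR). At an unadjusted p under 0.05 there were 11 of the 25 in edgeR, and DESeq2 called 3 and limma 1. With the block 8 rose and 2 fell, against 6.64% and 7.91% of all genes. Those that rose included NASP and CHAF1B, which escort H3 and H4 to new DNA. NASP had 29.3, 30.2 and 24.2 FPKM with siCtrl against 39.0, 46.9 and 36.0 with siNUF2 (with the block it rose by 0.56, adjusted p = 0.004, edgeR).

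Histone genes that are expressed outside S phase did not share one direction. Of 14 in the list, 9 were tested, 1 rose and 1 fell. CENPA, the centromeric H3, had 8.65, 8.77 and 9.27 FPKM with siCtrl against 14.7, 15.5 and 14.7 with siNUF2, a log2 fold change of 0.77 ± 0.11 (SE, adjusted p = 0.011, edgeR). H2AZ2, a variant H2A, had 27.5, 26.9 and 28.1 FPKM with siCtrl against 13.8, 15.6 and 14.6 with siNUF2, with -0.89 ± 0.09 (SE, adjusted p = 0.004, edgeR). The standard errors of both were below those of the 19 replication-dependent genes, which ran from 0.16 to 0.69.

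Since histone genes are used in S phase, genes of DNA replication were set beside them. Of 38, 29 had a log2 fold change above 0 with a median of 0.16. RRM1, of ribonucleotide reductase, was the one gene called, at 0.40 (adjusted p = 0.049, edgeR), and edgeR called 0 of the list with any 1 library left out, as did limma on all 6, while DESeq2 called 4. At an unadjusted p under 0.05 there were 11 in edgeR. With the block 10 of the 38 rose and 1 fell, against 6.64% and 7.91% of all genes. The gene that fell was SLBP, which is counted in this list too. Those that rose included RRM2 and the helicase subunits MCM2, MCM3, MCM5 and MCM7, and MCM2 is counted among the chaperones as well. Of 25 genes of G2 and mitosis, edgeR called 0 without the block (4 at an unadjusted p under 0.05), and DESeq2 and limma called 1 each. With the block 3 rose and 1 fell, and the median without it was 0.05.

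**Figure D5:**
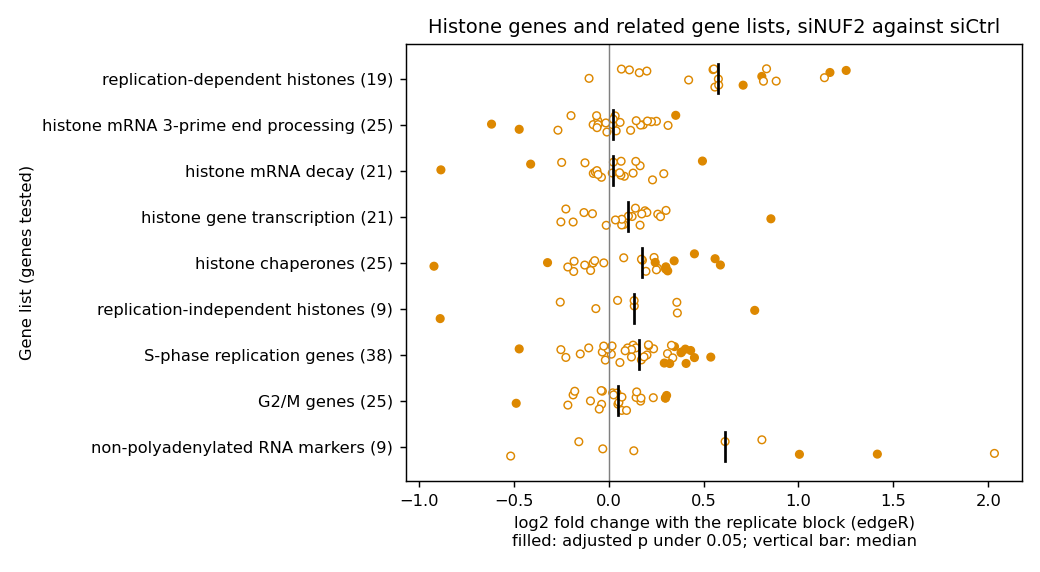
log2 fold change with the replicate block for the 19 tested histone genes and 8 related gene lists, 1 point per gene, filled at an adjusted p under 0.05, with a bar at the median. Of the histone genes 5 points are filled, all to the right of 0, as are 10 of the 11 filled points among S-phase replication genes, and the non-polyadenylated RNA markers have a median above 0.6.

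RNAs of other kinds that carry no poly(A) tail were listed to show how such RNA varied between these poly(A)-selected libraries. Of 26, 9 were tested. Without the block edgeR called 0 (2 at an unadjusted p under 0.05), and DESeq2 and limma called 0. With the block 2 rose, RPPH1 and SNORD3A, and 0 were called when the block was combined with edgeR's own expression filter. The median log2 fold change of 0.62 was close to the 0.56 of the histone genes, with 6 of 9 above 0. Summed over the list, they had 120, 117 and 67.6 FPKM with siCtrl against 89.1, 145 and 107 with siNUF2. The order of libraries was not that of the histone genes, since siNUF2 library 1, the highest for histone genes, was the lowest siNUF2 library here. How much carry-over of RNA without a poly(A) tail contributed to the histone values was not tested.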

How the data were processed

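Poly(A) RNA of 8505C cells was sequenced as 3 siCtrl and 3 siNUF2 libraries (paired reads of 150 bases), grouped by the sample labels. According to the paper's methods and the submitters' processing notes, fastp served for read quality, HISAT2 for mapping on GRCh38 (hg38) and StringTie for expression. Versions and the annotation release are not given in the sources used here. The authors deposited raw counts, as whole numbers, and FPKM, in which library size and transcript length are divided out. The tool behind the counts and its strand setting are not given in the sources used here. Short genes and near-identical copies are sensitive to how shared reads were assigned.

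Genes whose FPKM averaged 1 or more were tested on their counts with edgeR 4.0.16 (R 4.3.3, TMM, quasi-likelihood, Benjamini-Hochberg over 11725 genes, threshold 0.05). The paper's F-test, run here on log2(FPKM + 1), and DESeq2 1.42.0 were alternatives. So were limma 3.58.1 on log2(FPKM + 1) and on log2(FPKM + 0.1), other filters, a replicate block and the omission of each library. Standard errors are the log2 fold change over the square root of F. Summed levels used TMM library sizes. With 3 against 3, an exact two-sided permutation test cannot give a p below 0.1. Intervals from counting do not cover variation between libraries.

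Deviations from the group means correlated at 0.412 to 0.514 between libraries of the same number and at -0.292 to -0.131 otherwise. Within a group of 3 such deviations sum to 0 for each gene, so the negative values follow in part from the positive ones. The positive values were the ground for treating equal numbers as pairs, although no source says what a number shares. The blocked value is printed where it changes a call. On simulated counts, 54 of 100 genes changed 2-fold and 3 of 100 changed 1.5-fold were recovered. A further 9 calls, among 11725 genes, were false. The simulation used the same variability setting (dispersion) for every gene and no effect of the replicate number, so recovery in these data may differ.

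Of the 60 members, 58 matched GENCODE release 44 by ID and 2 by symbol, and 37 had the same span there. Named genes were the 5 highest of each class by FPKM, the tested genes with the highest and lowest fold change of each class, genes called with or without the block, preset regulators of histone mRNA and called genes of the other lists. Further names serve sequence comparisons. CCNE1, NASP, CHAF1B, RRM2, the MCM genes, RPPH1 and SNORD3A were named after their values were seen. The members and lists were chosen with earlier results of these data known. The hairpin rule, first limited to loops that end in C, was widened, and the limit of 100 bases past the hairpin was set, after the members' sequences were seen.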

Additional observations from a re-analysis of the deposited data

How the results depend on the processing

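The number of genes called was 468 of 11725, and of the same 11725 it was 972 with DESeq2 and 1705 with the replicate block. Without a filter it was 188 of 32985, and with edgeR's own expression filter 309 of 19276. The block and that filter together (chosen after seeing the data) gave 1310 of 19276. With a library left out it was 124 to 251 of 11725. Of histone genes, 1 was called, against 2 with DESeq2 (H2BC5 and H1-2), 0 without a filter (60 genes tested, 9 at an unadjusted p under 0.05), 0 with edgeR's own filter (42 tested, 8 at an unadjusted p under 0.05), 5 with the block, 4 with the block and that filter (without H1-2), and 0 to 1 with a library left out (2 to 9 at an unadjusted p under 0.05). The paper's rule was a fold change over 2 or under 0.5 with an unadjusted F-test, run here on log2(FPKM + 1). It passed 2 of 60 histone genes, against 702 of 32985 genes. H2BC5 passed as higher and H1-1 as lower, the latter on 11 counts. The causes of these shifts were not tested. The median log2 fold change of the tested histone genes lay between 0.37 (no filter) and 0.67 over these settings, and the log2 ratio of the summed counts of all 60 genes between 0.37 (without siNUF2 replicate 1) and 0.79. Of 270 values of single histone genes under alternatives, 255 kept their side of the threshold, 8 became calls and 7 lost one. A sign changed in 8 values, in H2AC11, H3C3, H4C14 and H4C15, none of them called. At these depths, 18 of the 60 genes had a mean count under 10.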
